A study of Mus musculus with 8 samples.

Results

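Of the 54232 genes in the deposited counts, 10 are described here. They are the integrin subunit genes that lymphocytes are known to use and were chosen by name, with no measured value in the rule although earlier results of these data were known: the beta subunit genes *Itgb1*, *Itgb2* and *Itgb7* and the alpha subunit genes *Itgal*, *Itgam*, *Itgax*, *Itga4*, *Itgae*, *Itga1* and *Itga2*. All 10 had counts and passed the filter on low counts. The study asked how the kinase TYK2 acts in immune cells of the mouse spleen. RNA from splenic NK cells, sorted as NK1.1+ cells, and from splenic CD8+ T cells was sequenced as single-end reads after amplification from small amounts of RNA. Both groups used here came from mice of 8 to 12 weeks, C57BL/6 in the labels and C57BL/6N in the methods, labelled as *Tyk2* knockout (*Tyk2*-/-) and kept without treatment, called homeostatic. Each group has 3 libraries, each from a pool of 3 spleens of littermates. Both groups are labelled as knockout, so that no effect of TYK2 on integrins was measured, and the libraries of wild type CD8+ T cells were not used here. The comparison is thus that of 2 cell types labelled with the same mutant background, and the numbers 1 to 3 given to the libraries do not pair them.

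Integrins are adhesion receptors made of 1 alpha and 1 beta subunit, and a subunit reaches the cell surface only with a partner. The beta 2 subunit (*Itgb2*) pairs with the alpha subunits of LFA-1 (*Itgal*), Mac-1 (*Itgam*) and CD11c/CD18 (*Itgax*), which bind ICAMs and complement fragments. The beta 7 subunit (*Itgb7*) pairs with the product of *Itga4* to form the receptor for the mucosal addressin MAdCAM-1, or with that of *Itgae* (CD103), which binds E-cadherin on epithelia. The beta 1 subunit (*Itgb1*) pairs with the product of *Itga4* to form VLA-4, a receptor for VCAM-1 and fibronectin, or with the products of *Itga1* and *Itga2* to form collagen receptors. The product of *Itga2* (CD49b) carries the DX5 epitope used to recognise mouse NK cells, and that of *Itgam* (CD11b) marks their maturation.

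Total counts ranged from 20957384 to 26144478 in the CD8+ libraries and from 32848432 to 38573550 in the NK libraries, and counts were normalised for this difference with edgeR's TMM factors. Counts of up to 3 are treated as the limit of detection, with counting error alone in view. Folds given below as at least some value are set against this limit and leave out the spread between libraries. The targeted gene *Tyk2* still had reads in every library, with 105, 919 and 554 reads in the CD8+ libraries against 3864, 4245 and 3207 in the NK libraries. Without wild type libraries and counts per exon these values do not check the genotype labels. The cell type labels went with their main markers, though not every marker was at 0 in the other cell type. *Cd8b1*, a chain of the CD8 coreceptor, had counts of 60518 to 80266 in the CD8+ libraries and 0 in the NK libraries, and *Ncr1*, an activating NK cell receptor, had 137008 to 195219 in the NK libraries and 0 in the others. In the NK libraries the T cell receptor complex genes *Cd3d* and *Cd3g* had 2978 to 8065 and 4337 to 7598 counts, with 41758 to 59060 and 56552 to 72144 in the CD8+ libraries. In the CD8+ libraries the NK cell genes *Eomes* and *Gzma* had 350 to 1553 and 0 to 1412 counts, with 10409 to 13239 and 1029216 to 1487452 in the NK libraries. Libraries differed from each other more among CD8+ T cells than among NK cells. Over genes with a mean of at least 10 normalised counts in the group, the median coefficient of variation (SD divided by the mean) was 0.7 in CD8+ T cells against 0.336 in NK cells, and 22.5% of these genes had a library at 0 in CD8+ T cells against 7.63% in NK cells.

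Transcripts of *Itgb1*, *Itgb2*, *Itgal*, *Itgam*, *Itga4* and *Itga2* were higher in NK cells. These 6 of the 10 members passed the test in that direction, as did 6.24% of the 14062 genes tested, and 0 of 10 passed it with a higher level in CD8+ T cells, as did 5.14% of all genes. A gene was called at a Benjamini-Hochberg adjusted p-value below 0.05 over all genes tested, from edgeR's quasi-likelihood test. NK and CD8+ libraries were fully separate for 8 of 10 members, each time with all NK libraries higher, against 25.5% of all genes in that direction. *Itgb7* and *Itgae* overlapped, and 0 of 10 members had all CD8+ libraries higher, against 16.1% of all genes. These counts are on normalised counts, and on the TPM scale used below *Itgb7* alone changed and was higher in all CD8+ libraries. The median log2 fold change between NK and CD8+ T cells (NK over CD8+) was 2.98 over the members and 0.1 over all genes tested. In bulk samples fewer cells that carry a transcript and less transcript per cell cannot be told apart.

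**Figure D1:**
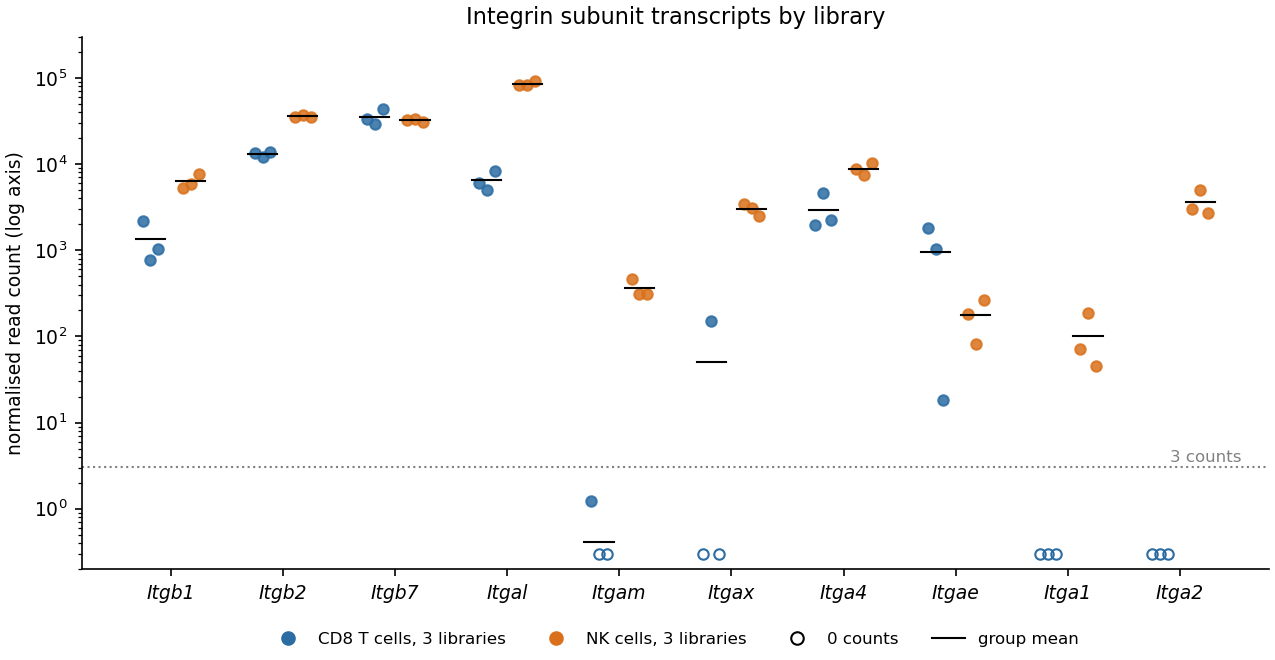
Normalised read count (log axis) of each integrin subunit gene in the 3 CD8+ libraries (blue) and the 3 NK libraries (orange), with group means as black lines, libraries with 0 counts as open circles at the bottom, and the mean level of 3 counts as a dotted line. NK cell points lie above all CD8+ T cell points for 8 of 10 genes, while *Itgb7* and *Itgae* overlap and *Itgae* and *Itgax* are widely spread among CD8+ T cells.

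The beta subunits were described first, since they set which alpha subunits can be used. *Itgb2* (ENSMUSG00000000290, plus strand of chr10:77530252-77565708 in GRCm38) had 10877, 9944 and 14328 reads in CD8+ libraries 1 to 3 against 36133, 44550 and 39092 in NK libraries 1 to 3. After normalisation it was at 13123 ± 850.0 (SD, n = 3) in CD8+ T cells against 35873 ± 1250 (SD, n = 3) in NK cells. It was among the most even members in both groups, and its lowest NK library exceeded its highest CD8+ library. Its log2 fold change was 1.45 (SE 0.14, edgeR adjusted p = 0.00172), and it was called in all 10 alternative fits, with adjusted p of at most 0.018. *Itgb1* (ENSMUSG00000025809, plus strand of chr8:128685654-128733200) had 1805, 627 and 1075 reads in the CD8+ libraries against 5467, 6936 and 8568 in the NK libraries. Its normalised means were 1339 ± 764.9 and 6277 ± 1258 (SD, n = 3 each), so that the NK libraries were again all higher, while CD8+ library 1 stood above libraries 2 and 3. The log2 fold change of *Itgb1* was 2.23 (SE 0.45, edgeR adjusted p = 0.0276). This call was lost in 4 of the 6 fits that leave out 1 library, those without CD8+ library 3 (2.09, edgeR adjusted p = 0.0536) and without NK library 1, 2 or 3 (adjusted p of 0.0912 to 0.116).

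On normalised counts *Itgb7* was the member with the most similar level in the 2 cell types. *Itgb7* (ENSMUSG00000001281, minus strand of chr15:102215995-102231944) had 26985, 23541 and 44906 reads in the CD8+ libraries against 32971, 39940 and 34437 in the NK libraries. The normalised means were 35114 ± 7515 and 32166 ± 1250 (SD, n = 3 each), and the groups overlapped, since CD8+ library 3 was the highest and CD8+ library 2 the lowest of the 6. Its log2 fold change was -0.13 (SE 0.18, edgeR adjusted p = 0.69), and 0.06 without CD8+ library 3, so that no direction was set on this scale. On TPM, which scales each library to the same total, it was at 866.6, 665.0 and 1100 in the CD8+ libraries against 584.8, 588.9 and 510.5 in the NK libraries, with all CD8+ libraries higher and a 1.56-fold higher mean. The scaling thus changed the size of the difference and the overlap of *Itgb7*, while the CD8+ mean was the higher on both scales.

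Per length of transcript, the 3 beta genes gave CD8+ T cells and NK cells a different makeup. Levels of different genes are compared here as TPM, a level per length scaled to the same total in each library, computed from the counts and the exon length of each gene. Between the cell types TPM moves the median log2 ratio of NK to CD8+ T cells by -0.51 relative to normalised counts, over 12126 genes. In CD8+ T cells *Itgb7* was the highest of the members at 877.3 ± 217.8 TPM (SD, n = 3), above *Itgb2* at 295.5 ± 36.1 and *Itgb1* at 23.9 ± 14.9. In NK cells *Itgb2* at 565.3 ± 36.9 TPM and *Itgb7* at 561.4 ± 44.2 were within each other's range, and *Itgb1* was at 76.5 ± 11.3 (SD, n = 3 each). Of the summed TPM of the 3 beta genes, *Itgb7* took 70.9%, 71.4% and 76.6% in the CD8+ libraries and 47.5%, 47.0% and 45.4% in the NK libraries. The share of *Itgb2* was 25.8%, 27.3% and 22.1% in the former and 47.0%, 47.3% and 46.6% in the latter, and that of *Itgb1* was 1.29% to 3.33% and 5.54% to 7.95%. No share overlapped between the cell types. The sum itself depends on the scaling. On TPM it was at 1197 ± 253.3 TPM in CD8+ T cells against 1203 ± 70.1 in NK cells (SD, n = 3 each), with the lowest and the highest of the 6 libraries both among CD8+ T cells. On normalised counts per kb it was at 17857 ± 3064 against 25713 ± 738 (SD, n = 3 each), 1.44-fold higher in NK cells with no overlap.

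The alpha subunits differed more. Their summed level over the 7 genes was 112.7, 96.9 and 105.5 TPM in the CD8+ libraries and 744.9, 711.6 and 737.2 TPM in the NK libraries, 6.96-fold higher by the means, and 9.95-fold on normalised counts per kb. The ratio of the alpha sum to the beta sum was 0.0735 to 0.104 in the CD8+ libraries and 0.567 to 0.656 in the NK libraries. Most of the alpha level was *Itgal*, with 50.3% to 84.7% of it in CD8+ T cells against 84.9% to 87.1% in NK cells. What else was present changed with the cell type: *Itga4* and, in 2 of 3 libraries, *Itgae* in CD8+ T cells, but *Itga4*, *Itgax* and *Itga2* in NK cells. *Itgax* took 3.49% to 5.16% of the alpha level in the NK libraries and 2.24% in CD8+ library 2, with 0 in the other CD8+ libraries.

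**Figure D2:**
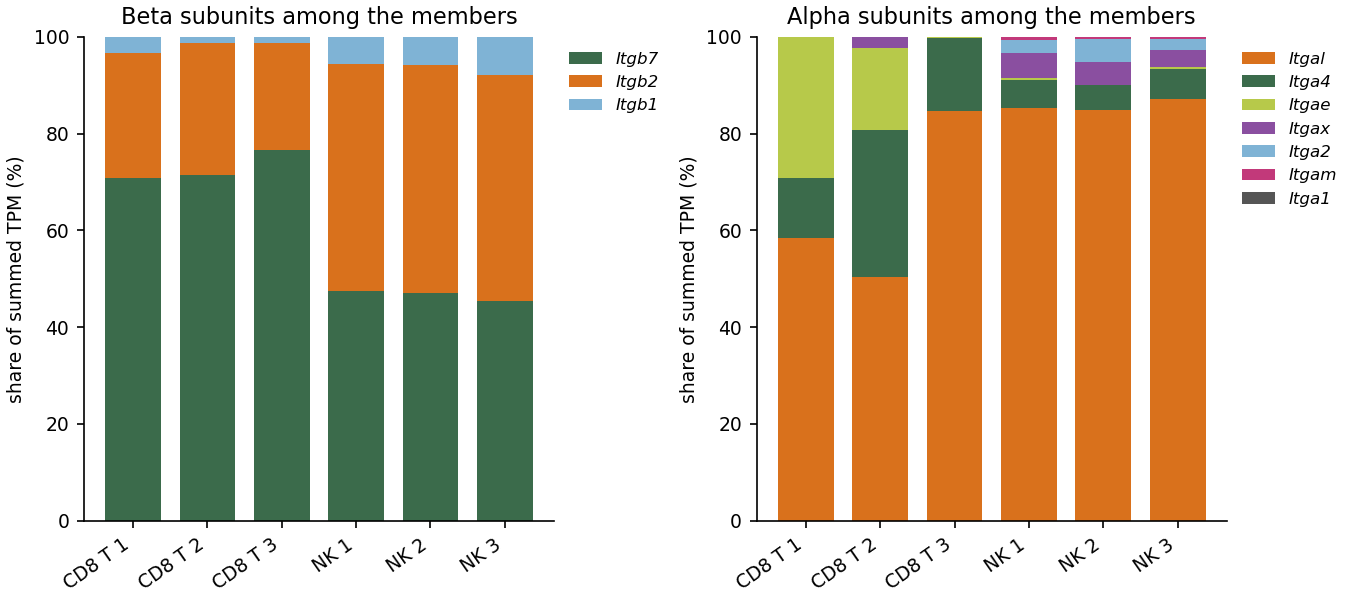
Share (%) of the summed TPM taken by each beta subunit gene (left) and each alpha subunit gene (right) in each of the 6 libraries. In the left panel *Itgb7* takes 70.9% or more in CD8+ T cells and 47.5% or less in NK cells, and in the right panel *Itgal* takes 84.9% or more in NK cells while the makeup of the CD8+ libraries varies.

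*Itgal*, the alpha subunit of LFA-1, had the smallest p-value of the members. *Itgal* (ENSMUSG00000030830, plus strand of chr7:127296260-127335138) had 4875, 4104 and 8675 reads in the CD8+ libraries against 85165, 97439 and 102970 in the NK libraries. Normalised, these were 6464 ± 1736 and 85687 ± 5995 (SD, n = 3 each), and the lowest NK library lay far above the highest CD8+ library. The log2 fold change was 3.73 (SE 0.23, edgeR adjusted p = 0.000471), a 13.3-fold higher mean in NK cells, and *Itgal* was called in all 10 alternative fits. Its level of 627.0 ± 20.1 TPM (SD, n = 3) was the highest of the 10 members in NK cells, and its lowest library there (604.1 TPM) was above the highest of *Itgb2* (593.4 TPM). In CD8+ T cells *Itgal* was at 68.0 ± 20.4 TPM, below *Itgb7* and *Itgb2* in every library and above *Itgb1*.

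*Itgam* and *Itgax*, which encode the alpha subunits of Mac-1 and CD11c/CD18, were low or not detectable in CD8+ T cells. *Itgam* (ENSMUSG00000030786, plus strand of chr7:128062640-128118491) had 1, 0 and 0 reads in the CD8+ libraries against 477, 367 and 344 in the NK libraries. All NK libraries were thus well above the limit of 3 counts and no CD8+ library reached it. Pooled over libraries, the counts gave a ratio of NK to CD8+ T cells of 950-fold, with an exact 95% counting interval of 170- to 37557-fold. This rests on a single CD8+ read, below the limit of 3 counts, and leaves out the spread between libraries. Neither the ratio nor the lower end of its interval is a bound against that limit, which would give a lower fold. *Itgam* was called (edgeR adjusted p = 0.0207). The call was lost without NK library 1, 2 or 3 (edgeR adjusted p of 0.0919 to 0.112) and held without each CD8+ library. In the annotation 3450 of the 4926 exon bases of *Itgam* (70.0%) are shared with *Gm49368* on the same strand, which had 0 counts in CD8+ T cells against 62, 100 and 96 in NK cells, so that the count and the level per length of *Itgam* are uncertain. On the full exon length it was at 3.44 ± 1.01 TPM in NK cells. With the same count set against only the 1476 bases it does not share, it was at 11.5 ± 3.38 (SD, n = 3 each). The latter holds only if no read in the shared bases was counted, which is not known.

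*Itgax* (ENSMUSG00000030789, plus strand of chr7:128129547-128150657) had 0, 124 and 0 reads in the CD8+ libraries against 3497, 3644 and 2804 in the NK libraries. The NK libraries were close together, at 2992 ± 444.1 normalised counts (SD, n = 3), while a single CD8+ library held all the reads of its group. *Itgax* was not called (log2 fold change 5.89, SE 2.14, edgeR adjusted p = 0.123), although the groups did not overlap. Without CD8+ library 2 both remaining libraries of that group were at 0 and *Itgax* was called (edgeR adjusted p = 0.00201), and in the other alternatives its adjusted p lay between 0.0755 and 0.25. In NK cells it was the third alpha gene by level, at 32.5 ± 6.37 TPM, and its range overlapped those of *Itga4* (42.1 ± 5.57 TPM) and *Itga2* (23.7 ± 8.73 TPM; SD, n = 3 each).

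Since *Itgam* and *Itgax* are also genes of myeloid cells, markers of those cells were read in the same libraries. The summed normalised count of 7 macrophage and monocyte markers was 249.9 to 864.1 in NK cells and 2.45 to 415.1 in CD8+ T cells, most of it *Cd68* in NK cells. *Adgre1*, *Cd14* and *Fcgr1* were at 0 in all 6 libraries. Of 6 neutrophil markers, 5 were at 0 in all libraries and *Ly6g* had at most 53 counts. The 6 dendritic cell markers summed to 254.6 to 752.2 normalised counts in NK cells and to 0, 52.7 and 438.4 in CD8+ T cells. In the CD8+ libraries *Zbtb46* had 0, 31 and 453 counts and *Xcr1* 0, 12 and 0, the latter only in the library that held the *Itgax* reads. The part of such cells in the values of *Itgam* and *Itgax* was not tested.

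The genes *Itgam* and *Itgax* are neighbours, 11.1 kb apart with no protein-coding gene between them, and *Itgad*, another alpha subunit gene that pairs with *Itgb2*, begins 3.72 kb after *Itgax*. *Itgal* lies 727.5 kb before *Itgam* on chromosome 7, with 38 protein-coding genes between. *Itgad*, which is not one of the 10, had 0, 0 and 0 reads in the CD8+ libraries against 676, 874 and 486 in the NK libraries. It was at least 178-fold higher in NK cells against a floor of 3 counts per library, which covers counting error alone. *Itgad* was called (edgeR adjusted p = 0.013), a call lost without NK library 1, 2 or 3 (adjusted p of 0.0802 to 0.0957). The windows before the starts of *Itgam* and *Itgax* are shown because the 2 genes were both at or near 0 in most CD8+ libraries, with reads of both in all NK libraries. They hold the 250 bases before the RefSeq start on GRCm38.p6, plus strand, at chr7:128062390-128062639 and chr7:128129300-128129549. Capitals mark matches, on either strand, to 4 core motifs: the Runx core ACCACA, the T-box core GGTGTG, the Ets core GGAAGT and the Sp1 box GGGCGG.
Itgam: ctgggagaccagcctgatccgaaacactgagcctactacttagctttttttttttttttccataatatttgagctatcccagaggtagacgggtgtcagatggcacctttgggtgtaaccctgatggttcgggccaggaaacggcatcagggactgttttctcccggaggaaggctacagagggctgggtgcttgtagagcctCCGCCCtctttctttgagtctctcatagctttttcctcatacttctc
Itgax: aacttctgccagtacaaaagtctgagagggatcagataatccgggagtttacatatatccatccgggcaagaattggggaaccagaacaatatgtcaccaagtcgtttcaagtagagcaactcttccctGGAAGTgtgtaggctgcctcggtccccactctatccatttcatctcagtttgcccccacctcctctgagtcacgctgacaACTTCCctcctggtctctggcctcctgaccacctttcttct
The *Itgam* window held 1 Sp1 box, whose letters occur at least once in 32.7% of all 32851 windows of this length, and the *Itgax* window held 2 Ets cores, of which at least 1 is found in 19.7% and at least 2 in 2.71% of windows. The Runx core occurs in 14.0% and the T-box core in 16.3% of windows, and neither set of letters is in these 2 windows.

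*Itga4*, whose product pairs with both the beta 1 and the beta 7 subunit, was the only alpha gene other than *Itgal* with reads far above the limit in all 6 libraries. *Itga4* (ENSMUSG00000027009, plus strand of chr2:79255426-79333123) had 1585, 3788 and 2347 reads in the CD8+ libraries against 8914, 8877 and 11502 in the NK libraries. The normalised means were 2952 ± 1476 and 8817 ± 1458 (SD, n = 3 each), with all NK libraries higher and with CD8+ library 2 above libraries 1 and 3. It was called with a log2 fold change of 1.58 (SE 0.38, edgeR adjusted p = 0.0455). This was the call nearest to the threshold, and it was lost in 5 of the 6 fits that leave out a library (edgeR adjusted p of 0.0833 to 0.151), the exception being that without CD8+ library 2 (2.1, adjusted p = 0.00777). *Itga4* shares 127 exon bases with *Cerkl* on the opposite strand, which had at most 426 counts. In CD8+ T cells its level of 19.7 ± 8.42 TPM (SD, n = 3) had a range that overlapped those of *Itgb1* and *Itgae*.

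*Itgae*, which encodes the CD103 chain, had the widest spread of the members with reads in all 3 CD8+ libraries. *Itgae* (ENSMUSG00000005947, plus strand of chr11:73090583-73147446) had 1466, 842 and 19 reads in the CD8+ libraries against 189, 97 and 295 in the NK libraries. CD8+ libraries 1 and 2 were above every NK library and library 3 was below all of them, so the groups overlapped. Its normalised means were 948.2 ± 890.6 and 176.8 ± 92.2 (SD, n = 3 each), with a log2 fold change of -2.42 (SE 1.40, edgeR adjusted p = 0.28). Without CD8+ library 3 the log2 fold change was -2.98 and *Itgae* was called higher in CD8+ T cells (edgeR adjusted p = 0.0496), and over all alternatives its adjusted p ran from that value to 0.525. The low library was not low for the partner of *Itgae*, since CD8+ library 3 had the most *Itgb7* reads of all. Some marker sums moved across the CD8+ libraries in the same order as *Itgae* and others did not, and those given were picked after their values were seen. Sums of naive T cell markers (129165, 99723 and 113958) and of memory or effector T cell markers (35962, 16507 and 26809) did not. That of macrophage and monocyte markers ran in reverse (2.45, 69.9 and 415.1). Low sums of CD4 T cell (116.2, 7.36 and 3.87) and erythroid markers (45.3, 7.36 and 2.90) went in the same order. The summed normalised count of 5 B cell markers was 6661, 4755 and 940.6 in libraries 1 to 3, with *Ms4a1* counts of 405, 6 and 0 and *Cd79b* counts of 4691, 3853 and 972. The summed count of 4 genes listed for ILC1, was 15026, 8483 and 5403, an order set by *Cxcr6*, which T cells also express. Of the other genes of that list *Cd200r1* had 418, 1 and 0 counts, whereas *Zfp683* had 0, 0 and 468 and *Tnfsf10* 1, 41 and 21. Their part in the values of *Itgae* was not tested.

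*Itga1* and *Itga2*, whose products pair with the beta 1 subunit to bind collagen, had 0 counts in all 3 CD8+ libraries. *Itga2* (ENSMUSG00000015533, minus strand of chr13:114833081-114932100) had counts of 3077, 6019 and 3012 in NK cells, with library 2 the highest. At 3581 ± 1273 normalised counts (SD, n = 3) it was at least 1048-fold higher in NK cells against a floor of 3 counts per library. That floor covers counting error alone, and other genes with reads in 1 CD8+ library were at 0 in another, so the fold is no firm bound. *Itga2* was called (edgeR adjusted p = 0.0018) and kept its call in all 10 alternative fits, with adjusted p of at most 0.018. DX5 beads were used by the study to isolate NK cells for a flow cytometry assay and for RNA measured by quantitative PCR, and whether the NK cells sequenced here were enriched with them is not given in the sources used here. The level of *Itga2* is therefore given as that of the cells as they were isolated.

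*Itga1* (ENSMUSG00000042284, minus strand of chr13:114953096-115101964) had counts of 74, 223 and 51 in NK cells. These are above the limit in each library but low, and NK library 2 was again the highest. Of the genes listed for ILC1, cells known to carry the product of *Itga1*, *Cd200r1* went in the same order, with counts of 98, 186 and 50. The others did not, with 310, 0 and 0 for *Zfp683*, 93, 73 and 275 for *Cxcr6* and 447, 287 and 73 for *Tnfsf10*, and the part of such cells in the values of *Itga1* was not tested. *Itga1* was at 101.5 ± 74.97 normalised counts (SD, n = 3), at least 29.7-fold higher than in CD8+ T cells against the same floor. It was not called (edgeR adjusted p = 0.0577), nor in any fit that left out a library (adjusted p of 0.0606 to 0.154), but it was with edgeR's own filter on low counts and with DESeq2. With 0.437 ± 0.326 TPM it was the lowest member in NK cells, and *Itga2* was at 23.7 ± 8.73 TPM (SD, n = 3 each). *Itga1* shares 451 exon bases with *Gm49395*, which had 0 counts in all libraries. Platelet markers were read because platelets carry the product of *Itga2*. They summed to 24.3, 138.2 and 188.8 normalised counts in NK libraries 1 to 3. In CD8+ libraries 1 to 3 the sum was 0, 0 and 533.2, all of it *Itga2b*. *Gp9* and *Treml1* were at 0 in all 6 libraries. *Pf4* and *Ppbp* had 73 and 70 counts in NK library 2, where *Itga2* was highest, and 0 in the other NK libraries. *Gp1bb* had 4, 22 and 74 counts and *Itga2b* 21, 0 and 136 in the NK libraries. Both were highest in NK library 3, where normalised *Itga2* was lowest. The part of platelets in the values of *Itga2* was not tested.

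The pair lies side by side on chromosome 13, 21.0 kb apart on the same strand with no protein-coding gene between, and the windows before both starts are shown for that reason. They hold the 250 bases before the RefSeq start, written 5′ to 3′ on the minus strand of GRCm38.p6, at chr13:114932101-114932350 for *Itga2* and chr13:115101965-115102214 for *Itga1*, with capitals as above.
Itga2: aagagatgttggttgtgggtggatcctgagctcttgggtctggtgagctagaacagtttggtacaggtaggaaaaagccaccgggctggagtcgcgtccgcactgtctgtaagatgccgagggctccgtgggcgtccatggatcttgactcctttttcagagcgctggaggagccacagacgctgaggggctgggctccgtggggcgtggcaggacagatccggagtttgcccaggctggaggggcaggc
Itga1: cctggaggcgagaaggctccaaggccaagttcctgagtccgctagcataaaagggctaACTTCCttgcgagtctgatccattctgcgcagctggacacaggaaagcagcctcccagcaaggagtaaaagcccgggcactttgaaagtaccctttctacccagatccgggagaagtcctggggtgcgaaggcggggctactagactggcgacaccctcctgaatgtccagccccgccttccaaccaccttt
The *Itga1* window held 1 Ets core, and none of the 4 sets of letters is in the *Itga2* window. RefSeq windows were found for 7 of the 10 members, and among those not printed *Itga4* held 1 Runx core, 2 T-box cores and 1 Sp1 box, *Itgb1* 1 Sp1 box and *Itgb7* 1 T-box core. *Itgal*, *Itgae* and *Itgb2* had no entry.

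**Figure D3:**
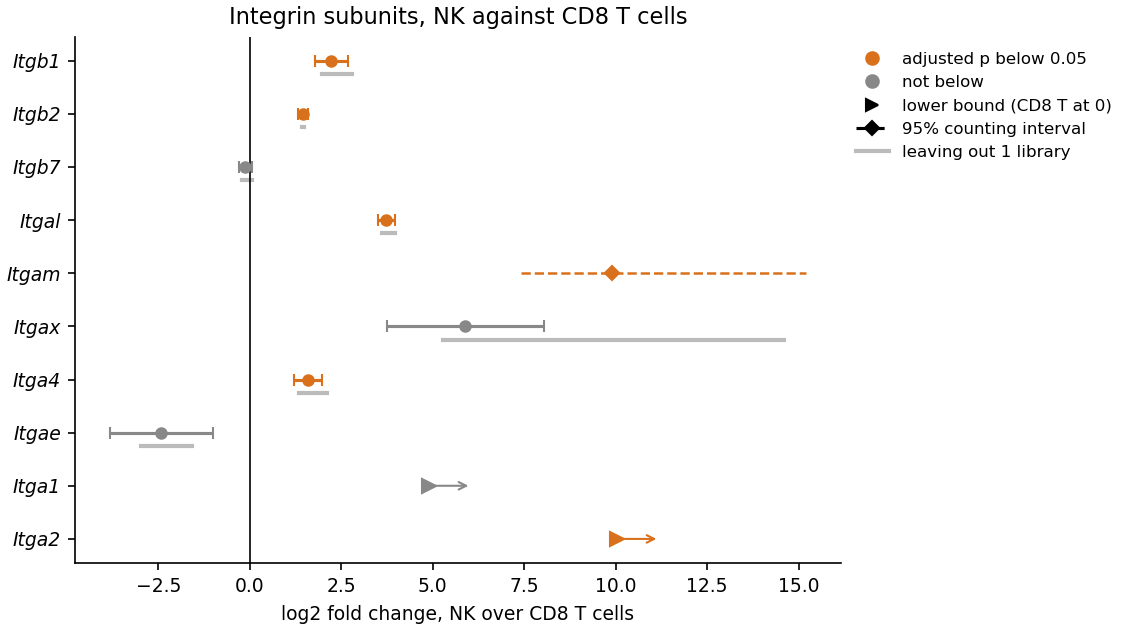
Log2 fold change (NK over CD8+ T) for each subunit gene, with the SE from edgeR as bars and the range over fits that leave out 1 library as grey lines. *Itga1* and *Itga2*, at 0 in CD8+ T cells, are drawn at their lower bounds against a floor of 3 counts, for counting error alone. *Itgam* is drawn with its 95% counting interval. That interval rests on a single CD8+ read and is no bound against the limit of 3 counts. *Itgal* and *Itgb2* have the narrowest intervals above 0, *Itgb7* spans 0, and the values of *Itgax* without 1 library reach from 5.28 to 14.61. The upper end comes from the fit without CD8+ library 2, with the remaining CD8+ libraries at 0, and its size is not measured.

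Ratios of subunits within a library do not depend on the scaling between libraries, and 8 ratios of reads per kb were compared on a log2 scale after adding 0.5 counts. With 3 libraries against 3 a two-sided exact permutation test cannot give a p below 0.1, so that no ratio could pass the threshold. For 5 of the 8 ratios p was 0.1 (adjusted p = 0.16 over the 8, exact permutation test), which with 3 against 3 means that NK and CD8+ libraries were fully separate. *Itgal* to *Itgb2* was -2.26, -2.38 and -1.83 in CD8+ T cells against 0.13, 0.03 and 0.29 in NK cells, a difference of 2.31. On the exon lengths used here the alpha gene of LFA-1 was thus below its beta gene in every CD8+ library and level with it or slightly above in every NK library. The level depends on the length taken for *Itgal*, 6381 bases over all exons but 5222 in its longest transcript, which would raise the ratio alike in all libraries. *Itgb1* to *Itgb7* was -4.41, -5.74 and -5.89 in CD8+ T cells against -3.10, -3.03 and -2.51 in NK cells, a difference of 2.46. *Itga4* to the sum of *Itgb1* and *Itgb7*, its possible partners, was -6.02, -4.53 and -6.15 against -3.91, -4.20 and -3.68, a difference of 1.63.

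The remaining ratios rest on genes at or near 0 in CD8+ T cells or overlapped. *Itga2* to *Itgb1* was -1.73, -1.10 and -2.41 in NK cells, and *Itgam* to *Itgal* was -7.11, -7.68 and -7.85 there on the full exon length of *Itgam*. Their values in CD8+ T cells are set by the counts added, together with a single *Itgam* read in CD8+ library 1. They differ from the NK cell values by 10.21 and 5.0. *Itgax* to *Itgal* was -4.48 in CD8+ library 2, within the range of the NK libraries (-4.64 to -4.05), and -12.69 and -13.52 in libraries 1 and 3, where *Itgax* had no reads (difference 5.94, exact permutation test, p = 0.2, adjusted p = 0.267). *Itgb2* to *Itgb1* was 2.95, 4.35 and 4.10 against 3.09, 3.04 and 2.55 (difference -0.91, exact permutation test, p = 0.3, adjusted p = 0.343). *Itgae* to *Itgb7* was -4.72, -5.32 and -11.69 against -7.96, -9.20 and -7.38 (difference -0.94, exact permutation test, p = 0.7, adjusted p = 0.7). As with its counts, the 2 CD8+ libraries rich in *Itgae* lay above the NK libraries and the third lay below.

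**Figure D4:**
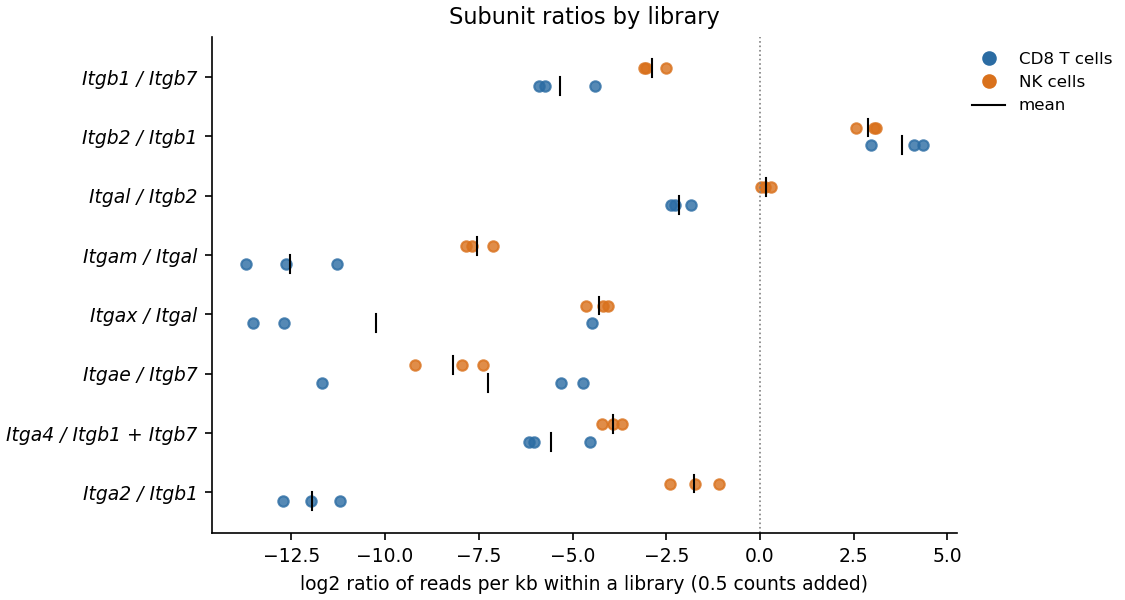
Log2 ratio of reads per kb of 2 subunits within each library (0.5 counts added), for 8 ratios, with CD8+ libraries in blue, NK libraries in orange and group means as black lines. *Itgal* / *Itgb2* spans -2.38 to -1.83 for the CD8+ libraries and 0.03 to 0.29 for the NK libraries, while *Itgae* / *Itgb7* and *Itgax* / *Itgal* spread widely among CD8+ T cells.

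Seen within each cell type, the order of levels of the 10 members differed. In NK cells it was *Itgal*, *Itgb2*, *Itgb7*, *Itgb1*, *Itga4*, *Itgax*, *Itga2*, *Itgam*, *Itgae* and *Itga1* by mean TPM. The ranges of neighbours overlapped for *Itgb2* and *Itgb7*, *Itga4* and *Itgax*, *Itgax* and *Itga2*, and *Itgam* and *Itgae*, and the other neighbours did not overlap. With its count set against its unshared length alone *Itgam* ranged from 9.27 to 15.4 TPM and no longer overlapped *Itgae*, which ranged from 0.998 to 3.05 TPM. This holds only if no read in the shared bases was counted, which is not known. In CD8+ T cells it was *Itgb7*, *Itgb2*, *Itgal*, *Itgb1*, *Itga4*, *Itgae*, *Itgax* and *Itgam*, with *Itga1* and *Itga2* at 0, where the ranges of *Itgb7*, *Itgb2*, *Itgal* and *Itgb1* were separate from each other and every later pair of neighbours overlapped. The spread also differed between members. In NK cells the coefficient of variation was 0.035 for *Itgb2*, 0.039 for *Itgb7* and 0.07 for *Itgal*, and 0.738 for *Itga1* at the other end. In CD8+ T cells it was 0.065 for *Itgb2*, 0.214 for *Itgb7*, 0.268 for *Itgal*, 0.5 for *Itga4*, 0.571 for *Itgb1* and 0.939 for *Itgae*. *Itgax*, with its reads in 1 library, reached 1.73.

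Integrins bind with high affinity only after signals inside the cell bring talin and kindlin to the beta subunit's tail, a step that the small GTPase Rap1 controls. Genes of this step were read as a list of 41, of which 33 were tested. Among the tested genes 7 were called with the higher level in NK cells and 4 with the lower, against 6.24% and 5.14% of all genes, and their median log2 fold change was 0.29. Without NK library 1, 2 or 3 only 2, 3 and 3 genes of the list were called, and *Rassf5* and *Rap1gap2* alone kept their call in all 10 alternative fits. *Tln1* and *Fermt3*, whose products bind the integrin tail to activate it, were called with all libraries only just below the threshold. *Tln1* (talin 1) was at 8870 normalised counts in CD8+ T cells against 23617 in NK cells (log2 fold change 1.41, SE 0.33, edgeR adjusted p = 0.0434). *Fermt3*, the kindlin of blood cells, was at 3175 and 9488 (1.58, SE 0.36, edgeR adjusted p = 0.0388). *Tln1* lost its call in 5 of the 6 fits that leave out a library, all but that without CD8+ library 3 (edgeR adjusted p of 0.0702 to 0.149), and *Fermt3* in 4, those without CD8+ library 3 or any NK library (0.0684 to 0.14). *Sharpin*, known as an inhibitor of integrin activation, was also higher in NK cells (1.28, SE 0.27, edgeR adjusted p = 0.0313). The other forms *Tln2*, *Fermt1* and *Fermt2* had 0 counts in all 6 libraries. *Tln1*, *Fermt3* and *Rasgrp1*, the 3 called genes of the list with the highest adjusted p, were named after their values were seen, so that all 11 calls are given.

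Genes of the Rap1 branch and of other steps on the list went in both directions. *Rap1b* itself was lower in NK cells, with 42563, 32536 and 27867 reads in the CD8+ libraries against 12964, 18569 and 17050 in the NK libraries (log2 fold change -1.45, SE 0.26, edgeR adjusted p = 0.0193). *Rassf5*, which encodes the Rap1 effector RAPL that binds LFA-1, had counts of 11556, 5103 and 14624 against 1618, 1697 and 1387 (-3.03, SE 0.37, edgeR adjusted p = 0.00498). *Rasgrp1*, an exchange factor downstream of the T cell receptor, was lower in NK cells as well (-1.11, SE 0.26, edgeR adjusted p = 0.0418). So was *Cytip*, a binding partner of cytohesin 1 (-1.21, SE 0.19, edgeR adjusted p = 0.0108). Higher in NK cells were the Rap1 exchange factor *Rapgef1* (1.87, SE 0.27, edgeR adjusted p = 0.00834) and *Apbb1ip*, which encodes RIAM, a link from Rap1 to talin (2.08, SE 0.45, edgeR adjusted p = 0.0346).

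*Rap1gap2* and *Fgr* were at or near 0 in CD8+ T cells, and their folds are against the floor of 3 counts, for counting error alone. *Rap1gap2*, which encodes a protein that switches Rap1 off, had counts of 0 in all CD8+ libraries and of 1755, 2457 and 2196 in NK cells, at least 560-fold higher against the floor (edgeR adjusted p = 0.00208). *Fgr*, a Src family kinase, had counts of 2, 3 and 0, none above the limit, against 726, 1035 and 999, at least 241-fold higher against the same floor (edgeR adjusted p = 0.0136). Genes of the list with similar values in both included *Rasgrp2* (0.05, SE 0.28, edgeR adjusted p = 0.937), *Vav1* (0.04, SE 0.21, edgeR adjusted p = 0.924) and *Skap1* (0.29, SE 0.2, edgeR adjusted p = 0.36).

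**Figure D5:**
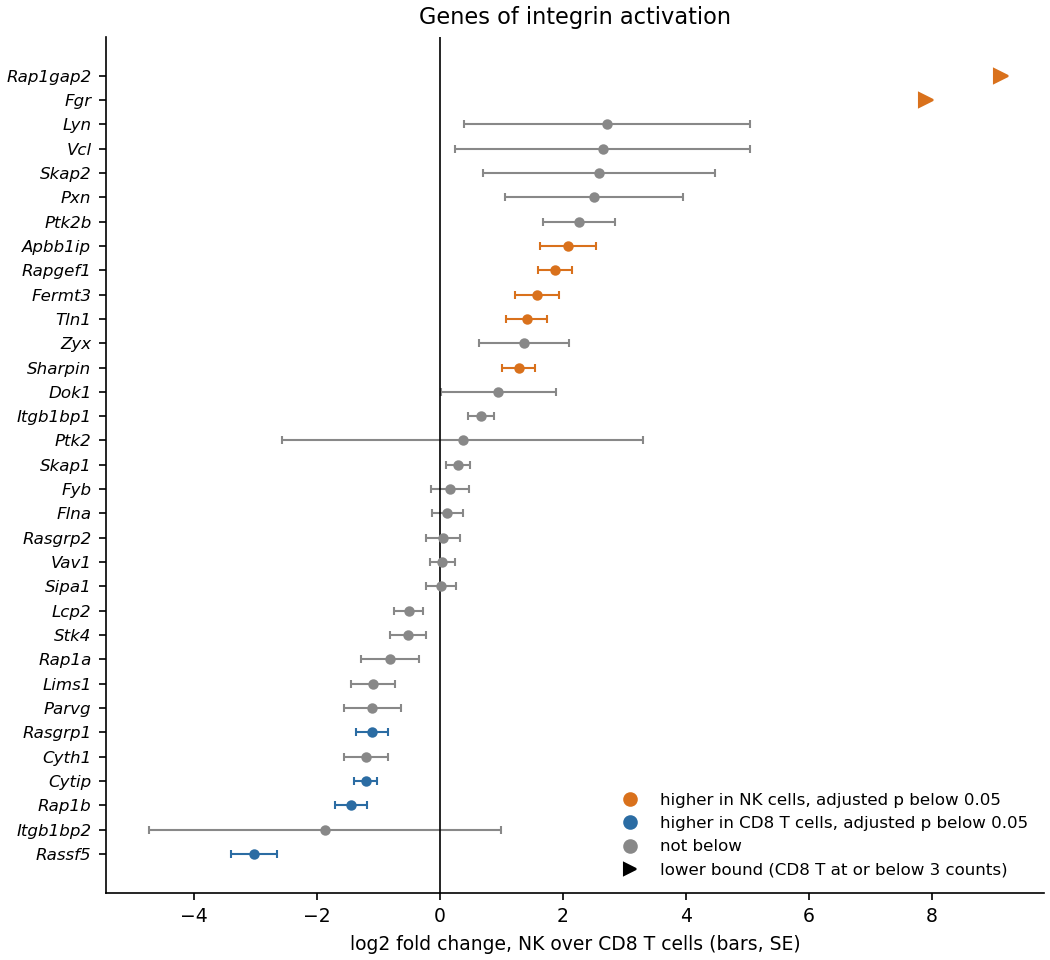
Log2 fold change (NK over CD8+ T) with its SE for the 33 tested genes of integrin activation, coloured by call, with *Rap1gap2* and *Fgr* (at most 3 counts in each CD8+ library) at their lower bounds. The 7 genes called higher in NK cells run from *Sharpin* at 1.28 upward, and the 4 called higher in CD8+ T cells from *Rasgrp1* at -1.11 down to *Rassf5* at -3.03.

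Of 17 further integrin subunit genes, 7 were tested and *Itgad*, given above, was the only 1 called, while 7 had 0 counts in all libraries. *Itga6*, *Itgav* and *Itga5* were not called (edgeR adjusted p of 0.819, 0.564 and 0.631), and *Itgb3* had 39, 94 and 0 reads in the CD8+ libraries against 618, 374 and 190 in the NK libraries (log2 fold change 2.73, SE 1.84, edgeR adjusted p = 0.353). Of 18 genes for integrin ligands, 3 were tested and 0 were called by edgeR or DESeq2, with 1 at an unadjusted p below 0.05. That gene was *Icam2*, a ligand of LFA-1, with 7856 normalised counts in CD8+ T cells against 11201 in NK cells (log2 fold change 0.51, SE 0.2, edgeR adjusted p = 0.144). *Icam1* was not called (1.05, SE 0.88, edgeR adjusted p = 0.462). *Vcam1*, the ligand of VLA-4, was at no more than 2 counts in any library, and *Madcam1* and *Fn1* were at 0 in all.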

How the data were processed

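RNA-seq counts of NK cells and CD8+ T cells, 3 libraries each, were analysed. Per the submitters' notes and the methods, single-end reads were trimmed (Trimmomatic 0.32) and mapped to mm10 (STAR 2.7.1), and what the authors deposited are unnormalised gene counts from exonic reads with a unique position, obtained in R 3.2.3 on the GENCODE Basic models of GRCm38. The amplification and library kits named in the labels do not mark strand, so overlapping and antisense genes may share reads, and multiply aligned reads were left out. Of 104 columns of values 6 were used and 98 were not, among them 3 labelled wild type CD8+ T cells against 2 samples. Columns carry other numbers than the samples and were used as unnumbered replicates. Whether the pools are separate cultures or cohorts beyond littermate pools is not stated, and p-values measure the spread between these libraries.

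Counts were analysed with edgeR 4.0.16 in R 4.3.3: TMM factors from the 6 libraries, a minimum of 10 for the normalised count averaged per gene (14062 genes), robust quasi-likelihood test, Benjamini-Hochberg adjustment over all genes tested, calls at adjusted p below 0.05. Normalised counts are scaled to the mean effective library size, and each SE is the size of the log2 fold change over the root of its F statistic. TPM used exon union lengths from GENCODE vM21. Ratios used an exact permutation test. Python 3.11.15 with pandas 2.3.3 and scipy 1.17.1 was used. Fits were also run on simulated counts, with a pass condition only where the spread was far lower than in these data. The members and the lists were chosen with earlier results of these data known. Named were the 10 members, up to 8 called genes of each list and *Tyk2*; genes outside this rule were named after their values were seen. Alternatives were RLE normalisation, no filter, filterByExpr, DESeq2 1.42.0, each library left out, other lengths and 1 added count for ratios and, chosen after seeing the data, the unshared length of *Itgam* and normalised counts per kb in place of TPM. No wild type comparison was run. Of the marker lists, 1 gene each of the B cell and the macrophage list is not reported here, and their sums are over the other genes.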

Additional observations from a re-analysis of the deposited data

How the results depend on the processing

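No paired analysis was possible because no replicate number of a sample is given with the counts. The planned comparison with wild type CD8+ T cells was not run. *Itga2*, *Itgal* and *Itgb2* were called in all 10 alternative fits. In the 6 fits that leave out 1 library, 3 to 7 members were called (6 with all libraries), and the 3 fits without an NK library called only *Itga2*, *Itgal* and *Itgb2*. Over all genes those 6 fits called 476 to 1946 (1600 with all libraries), filterByExpr called 2521 and DESeq2 3729. The same fits called 2 to 11 genes of the activation list (11 with all), 0 to 2 further subunits (1 with all; *Itga5* was added without CD8+ library 1 and *Itgad* was lost without NK library 1, 2 or 3) and 0 to 1 ligands (*Icam1*, without CD8+ library 1). *Rassf5* and *Rap1gap2* were called in every fit. Directions reversed for *Itgb7*, which ran from -0.22 to 0.06 when a library was left out and was 0.06 without CD8+ library 3, and for the ratio of *Itgae* to *Itgb7*, which ran from -3.16 to 0.32 and was 0.32 without CD8+ library 1 and 0.02 without library 2. The causes were not tested. With 1 count added in place of 0.5 the difference in the ratio of *Itgam* to *Itgal* was 4.2 (5.0 before) and in that of *Itga2* to *Itgb1* 9.21 (10.21 before); a change of length cancels in these differences. Leaving out an NK library lowered the calls over all genes to between 476 and 485, and leaving out a CD8+ library gave 1669 to 1946. Of the log2 fold changes that of *Itgax* moved most, from 5.28 to 14.61. The latter is the fitted value without CD8+ library 2. Both remaining CD8+ libraries were then at 0, so that its size is not measured. The log2 ratio of the summed beta genes was 0.01 on TPM and 0.53 on normalised counts per kb, chosen after seeing the data, and that of the alpha genes 2.8 and 3.31. At this depth levels of up to 3 counts in a library cannot be told from 0.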
